A study of Mus musculus with 8 samples.

Results

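Notch signalling genes were examined in the soleus, a calf muscle rich in slow fibres. The genes were picked by symbol and comprise 3 receptors (Notch1, Notch2 and Notch3), 4 ligands (Dll1, Dll4, Jag1 and Jag2) and 3 target genes (Hes1, Hey1 and Heyl), that is 10 of the 22880 gene IDs with deposited counts. RNA was sequenced from soleus muscles of 4 control mice (Dnm2 +/+) and 4 Dnm2 wt/K562E mice, which carry 1 wild-type and 1 K562E allele of Dnm2. All 8 were separate male mice aged 2 months on the C57BL/6 background. The K562E change, a point mutation in the large GTPase dynamin 2 that is linked to human neuropathy, was knocked in at the gene itself and is thus present in every cell type of the muscle, with a LoxP site left in an intron nearby. The study asked how this allele alters gene expression in muscle, and the comparison below puts that question to the Notch genes.

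Notch receptors are single-pass membrane proteins that respond to ligands of the Delta-like and Jagged families on neighbouring cells. When a bound ligand is taken up into its own cell, a step in which dynamin is known to act, the pull exposes the receptor to cleavage by ADAM proteases and then by gamma-secretase, and the freed intracellular domain joins the DNA-binding protein RBPJ to switch on Hes and Hey genes. In skeletal muscle the pathway is known for keeping satellite cells, the muscle stem cells, quiescent, and for patterning arteries and the mural cells (pericytes and smooth muscle) that wrap the vessels.

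Promoter sequences are shown for the member that rose and for a receptor and 2 ligands that fell, so that the control regions of genes with opposite changes can be read side by side. RefSeq start sites on GRCm38.p6 were found for 7 of the 10 members, Dll1 having a pair of them. Hes1, Hey1 and Heyl had no entry. Each sequence gives, 5′ to 3′ on the gene's strand, the 250 bases before the start, and capitals mark the letters CACGNG or CACNAG on either strand, the forms bound by Hes and Hey repressors. The windows are chr3:98013288-98013537 on the plus strand for Notch2, chr17:32166891-32167140 on the minus strand for Notch3, chr2:137116521-137116770 on the minus strand for Jag1 and chr17:15376933-15377182 on the minus strand for Dll1.
Notch2: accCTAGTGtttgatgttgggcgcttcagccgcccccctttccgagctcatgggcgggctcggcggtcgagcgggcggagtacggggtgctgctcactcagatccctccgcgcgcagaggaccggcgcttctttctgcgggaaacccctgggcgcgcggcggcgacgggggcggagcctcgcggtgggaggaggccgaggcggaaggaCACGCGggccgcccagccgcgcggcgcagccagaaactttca
Notch3: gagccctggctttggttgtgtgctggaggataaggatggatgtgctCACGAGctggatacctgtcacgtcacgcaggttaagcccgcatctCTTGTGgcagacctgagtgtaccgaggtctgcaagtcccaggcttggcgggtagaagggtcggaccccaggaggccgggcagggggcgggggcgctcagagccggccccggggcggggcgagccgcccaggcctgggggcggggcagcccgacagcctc
Jag1: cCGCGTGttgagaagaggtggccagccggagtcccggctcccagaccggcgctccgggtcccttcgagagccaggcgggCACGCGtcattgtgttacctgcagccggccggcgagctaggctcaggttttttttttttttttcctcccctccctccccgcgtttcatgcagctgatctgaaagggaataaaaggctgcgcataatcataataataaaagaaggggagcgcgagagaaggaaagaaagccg
Dll1: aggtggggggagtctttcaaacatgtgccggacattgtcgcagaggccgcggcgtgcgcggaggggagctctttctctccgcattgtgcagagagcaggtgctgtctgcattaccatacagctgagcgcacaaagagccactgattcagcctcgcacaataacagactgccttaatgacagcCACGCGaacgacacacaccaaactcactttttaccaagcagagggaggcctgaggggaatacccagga
Counted over the 300-base windows that also hold the first 50 transcribed bases, CACGNG stood in 7 of 8 member windows and in 27.5% of all 32851 windows. CACNAG stood in 5 of 8 member windows and in 42.5% of all, and CACGAG counts under both. The letters TGGGAA, the core that RBPJ reads, were in 0 of 8 member windows and in 25.6% of all, which says only that this short window lacks them. Member windows were 55.7% to 86.0% G or C, above the median of 52.7% over all windows, so letters rich in C and G were also more likely to occur in them. Notch2, which rose, and Notch3, Jag1 and Dll1, which fell, all held CACGNG. The member window without CACGNG was that of Notch1, which is not shown and also fell.

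Libraries held 33407430 to 48832814 counted reads, and 14001 genes passed a filter on low counts. Levels are given as normalized CPM, which are read counts put on a shared library-size scale by the TMM method of edgeR. TMM factors lay between 0.915 and 0.959 for the controls and between 1.04 and 1.10 for the mutants, so the scaling moved the genotypes relative to each other. Differences are log2 fold changes, Dnm2 wt/K562E over control, with their standard errors (SE), from edgeR's quasi-likelihood test with Benjamini-Hochberg adjustment over all tested genes, and a gene is said to have risen or fallen where the adjusted p was under 0.05. Over all tested genes the median log2 fold change was 0.01. Scaled by library size alone it was 0.22, and the numbers of genes that rose and fell went from 3103 and 3036 to 5608 and 1504. Dnm2 itself, whose total transcript level does not check a point mutation, was at 66.3 ± 4.74 (SD, n = 4) normalized CPM in controls and 73.4 ± 2.43 in the mutants, a difference of 0.15 on the log2 scale that did not pass (SE 0.07, 95% interval 0.003 to 0.29 before adjustment, adjusted p = 0.0909, edgeR). Every mutant lay above every control, as in 20.6% of all tested genes. In the paper, allele-specific reads showed no K562E transcripts in controls and similar amounts from both alleles in mutants. Myh7, the myosin of slow fibres, in which soleus is rich, was abundant in every mouse, at 6014 ± 263 normalized CPM in controls and 4193 ± 391 in mutants. It fell without overlap (log2 fold change -0.52, SE 0.08, adjusted p = 4.22e-04, edgeR).

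Most Notch receptors and ligands were lower in Dnm2 wt/K562E soleus, whereas Notch2 was higher. All 10 members passed the filter. Notch1, Notch3, Dll1, Jag1, Jag2 and Hey1 fell, which is 6 of 10 where 21.7% of all tested genes fell. Notch2 alone rose, 1 of 10 where 22.2% of all tested genes rose. Dll4, Hes1 and Heyl did not pass the test. With the additional demand of a log2 fold change of at least 0.58, used in the study's methods, 3 of 10 fell (Dll1, Jag1 and Jag2; 7.85% of all genes) and 1 of 10 rose (Notch2; 12.9% of all genes). In the 6 members that fell, every mutant mouse lay below every control, as did 20.5% of all tested genes, and in Notch2 every mutant lay above, as did 20.6% of all. The median log2 fold change of the members was -0.52, while the middle of all tested genes lay between -0.26 and 0.33 (quartiles).

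**Figure D1:**
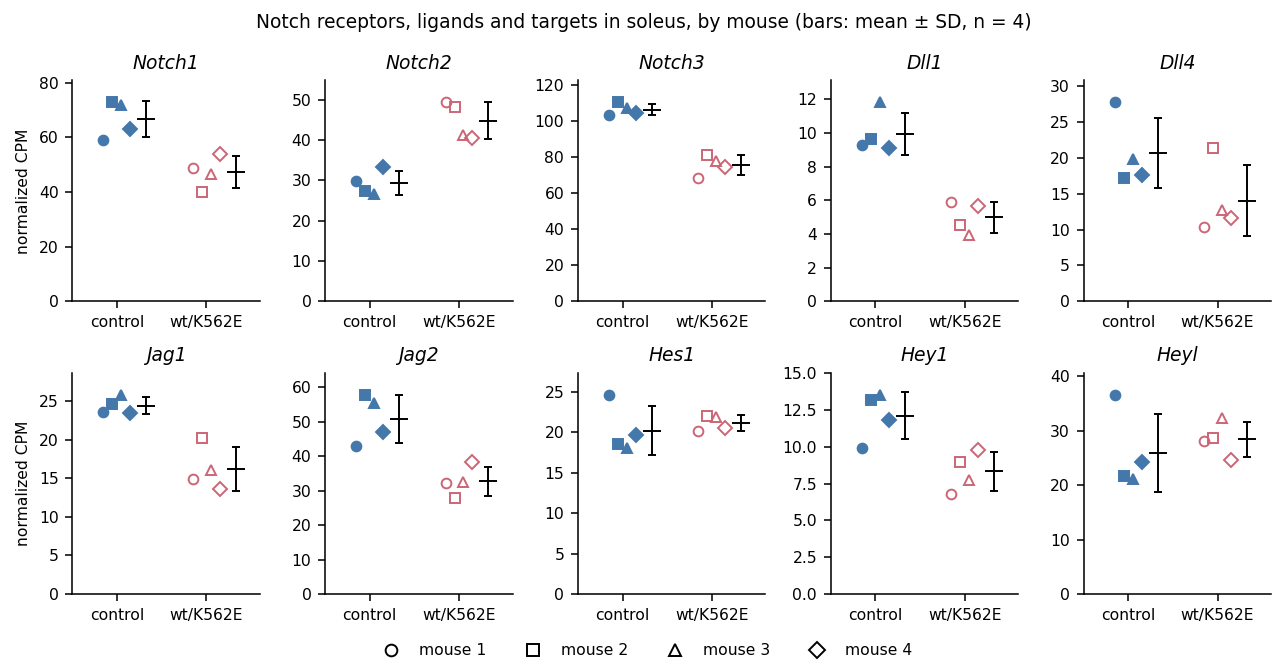
Normalized CPM (vertical axes, starting at 0) of the 10 Notch genes in each control mouse (filled blue) and each Dnm2 wt/K562E mouse (open red), with the mean ± SD over 4 mice in black. Equal marker shapes carry equal mouse numbers but are different animals. The mutants lie above the controls in Notch2 and below them in Notch1, Notch3, Dll1, Jag1, Jag2 and Hey1, and the genotypes overlap in Dll4, Hes1 and Heyl.

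Among the receptors, Notch3 fell with the smallest standard error. This receptor is known from mural cells of arteries and from satellite cells. Its gene lies on chromosome 17 (32120820 to 32166852, minus strand, GRCm38), and its level in controls 1 to 4 was 103, 111, 108 and 105 normalized CPM. In Dnm2 wt/K562E mice 1 to 4 it was 68.5, 81.3, 78.2 and 74.5. All mutants were therefore below all controls, and the means were 107 ± 3.16 and 75.6 ± 5.52 (SD, n = 4 each). The log2 fold change was -0.50 (SE 0.06, adjusted p = 1.30e-04, edgeR quasi-likelihood test), or 0.709 times the control level.

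Notch1, a receptor of endothelial and satellite cells among others, fell by a like amount with more spread. The gene lies on chromosome 2 (26457903 to 26516663, minus strand). Controls had 59.1, 72.8, 71.7 and 62.9 normalized CPM and mutants 48.9, 40.1, 46.6 and 54.1. Control 1 and mutant 4 came closest to each other, without overlap. The means of 66.6 ± 6.67 and 47.4 ± 5.80 (SD, n = 4 each) gave a log2 fold change of -0.49 (SE 0.10, adjusted p = 0.00233, edgeR).

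Notch2 moved the other way. It is a widely expressed receptor, known in muscle from satellite cells and in the immune system from myeloid and B cells, and its gene lies on chromosome 3 (98013527 to 98150361, plus strand). Its level was 29.9, 27.3, 26.7 and 33.4 normalized CPM in controls and 49.3, 48.2, 41.3 and 40.4 in mutants, so the lowest mutant was above the highest control. From 29.3 ± 3.06 to 44.8 ± 4.59 (SD, n = 4 each), the log2 fold change was 0.61 (SE 0.09, adjusted p = 4.09e-04, edgeR), a level 1.53 times that of controls. Of the exon bases of Notch2, 5.02% also belong to Gm42820 on the same strand, which is not among the genes with deposited counts.

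The remaining receptor, Notch4, an endothelial gene that was not a member, had 51.2, 60.0, 71.0 and 54.9 normalized CPM in controls and 31.7, 30.6, 32.2 and 37.6 in mutants. It fell by 0.85 on the log2 scale (SE 0.11, adjusted p = 9.99e-05, edgeR), and the genotypes did not overlap. With 3 receptors lower and 1 higher, the make-up of receptor transcripts shifted. To compare genes of unlike length, CPM were divided by exon length in kilobases, and each receptor was expressed as a share of the 4 receptors' sum. The share of Notch2 was 10.6%, 8.80%, 8.36% and 11.4% in controls and 22.4%, 21.1%, 18.4% and 17.5% in mutants, without overlap, with means of 9.79% ± 1.44 and 19.9% ± 2.29 (SD, n = 4 each). Notch4 went from 24.4% to 29.7% in controls to 17.9% to 21.8% in mutants. Shares of Notch3 averaged 47.2% and 44.6%, and those of Notch1 16.7% and 15.9%, with overlapping mice in both. These shares are a description, and they depend on the exon lengths chosen: with exons of the basic transcript set, Notch2 averaged 8.75% and 18.0%.

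**Figure D2:**
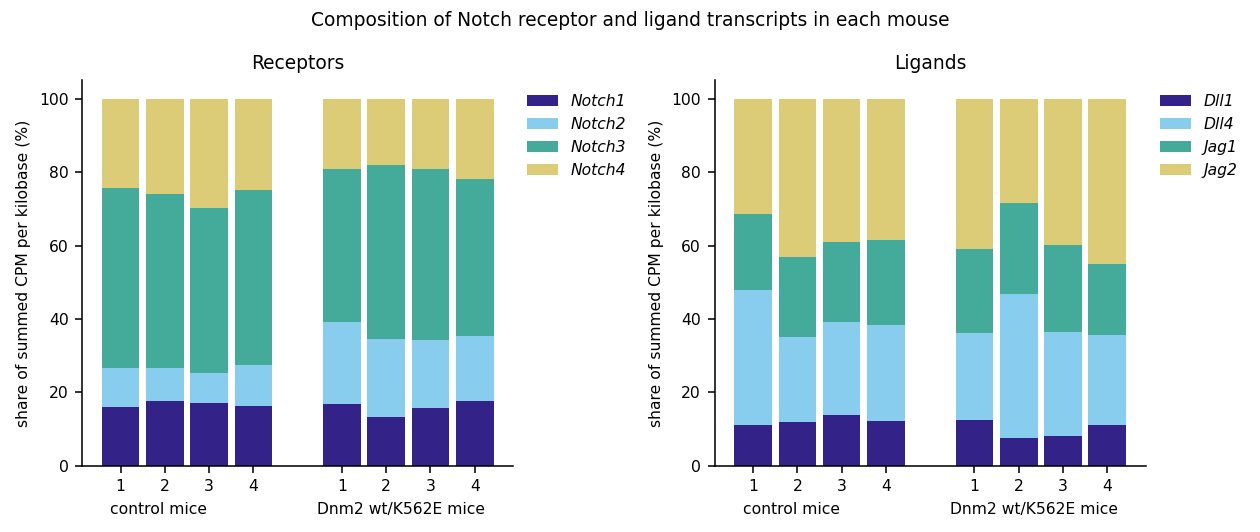
Share (%) of each Notch receptor (left) and each ligand (right) in the summed CPM per kilobase of its family, as 1 stacked bar per mouse, for the 4 control and the 4 Dnm2 wt/K562E mice. The Notch2 segment is 8.36% to 11.4% in controls and 17.5% to 22.4% in mutants, whereas the ligand segments overlap between genotypes, with the largest Dll4 segments in control 1 (36.6%) and mutant 2 (39.3%).

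All ligands had lower means in the mutants, and 3 of the 4 fell. Dll1, a Delta-like ligand known from muscle progenitors and from arterial endothelium, fell most. Its gene lies on chromosome 17 (15367354 to 15376872, minus strand), and it had 9.29, 9.62, 11.8 and 9.10 normalized CPM in controls against 5.89, 4.53, 3.96 and 5.65 in mutants. Each mutant was thus below the lowest control. The means were 9.96 ± 1.26 and 5.01 ± 0.916 (SD, n = 4 each), a fall to 0.501 times the control level (log2 fold change -0.996, SE 0.15, adjusted p = 3.26e-04, edgeR). Of its exon bases, 20.6% overlap A930024N18Rik on the other strand, and since the strand setting of the counting is not stated in the sources used here, reads of the 2 genes in that stretch cannot be told apart.

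Jag2, a Jagged ligand expressed by endothelial cells among others, lies on chromosome 12 (112907819 to 112929776, minus strand). Controls had 43.0, 57.8, 55.4 and 47.1 normalized CPM and mutants 32.3, 27.9, 32.5 and 38.3. The genotypes did not overlap, and the means were 50.8 ± 6.97 and 32.8 ± 4.26 (SD, n = 4 each; log2 fold change -0.63, SE 0.11, adjusted p = 0.00116, edgeR).

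For Jag1, the Jagged ligand of endothelium and smooth muscle (chromosome 2, 137081456 to 137116644, minus strand), the controls lay close together at 23.7, 24.7, 25.8 and 23.4 normalized CPM. The mutants were at 14.9, 20.2, 16.0 and 13.6, with mutant 2 nearest to the controls. The log2 fold change between 24.4 ± 1.08 and 16.2 ± 2.84 (SD, n = 4 each) was -0.59 (SE 0.11, adjusted p = 0.00155, edgeR).

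Dll4, the ligand of arterial and sprouting endothelium, was the ligand that did not pass the test. The gene lies on chromosome 2 (119325784 to 119335962, plus strand). Its controls had 27.7, 17.2, 19.8 and 17.7 normalized CPM and its mutants 10.4, 21.3, 12.8 and 11.6, so that mutant 2 stood among the controls and the other mutants below them. The means were 20.6 ± 4.87 and 14.0 ± 4.97 (SD, n = 4 each), with a log2 fold change of -0.55 (SE 0.22, 95% interval -1.05 to -0.06 before adjustment, adjusted p = 0.0663, edgeR). Without mutant 2 the log2 fold change was -0.83 and passed (adjusted p = 0.00346), and it also passed with edgeR's exact test (adjusted p = 0.0382) and with DESeq2 (adjusted p = 0.0278). Over all alternatives the adjusted p ran from 0.00346 to 0.248. Control 1 and mutant 2 also had the largest shares of Dll4 among the ligands, 36.6% and 39.3% of the summed CPM per kilobase. These mice carry the same number in the sample descriptions. The other ligand, Dll3, had no counted read in any mouse.

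The 3 target genes did not move together. Hey1, a transcriptional repressor that Notch switches on in endothelium and satellite cells, lies on chromosome 3 (8663359 to 8667256, minus strand) and fell. It had 9.95, 13.2, 13.5 and 11.8 normalized CPM in controls and 6.79, 8.97, 7.75 and 9.81 in mutants. Control 1 and mutant 4 were almost level. From 12.1 ± 1.63 to 8.33 ± 1.33 (SD, n = 4 each) the log2 fold change was -0.54 (SE 0.14, adjusted p = 0.00810, edgeR), and with scaling by library size alone it was -0.33 and did not pass (adjusted p = 0.0563).

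Hes1, the most widely used Notch target and itself a repressor (chromosome 16, 30064384 to 30067796, plus strand), had 24.6, 18.5, 18.0 and 19.6 normalized CPM in controls. In mutants it had 20.1, 22.1, 21.9 and 20.6, all inside the range of the controls. Without control 1, every mutant lay above the other controls and the log2 fold change was 0.17, which did not pass (adjusted p = 0.0862, edgeR). The means of 20.2 ± 3.03 and 21.2 ± 0.962 (SD, n = 4 each) differed by 0.07 on the log2 scale (SE 0.10, 95% interval -0.15 to 0.29, adjusted p = 0.610, edgeR). In fold terms, the interval reaches from 0.899 to 1.22 times the control level. With library size alone the log2 fold change was 0.28 (adjusted p = 0.0436), next to the median of 0.22 that all genes then had.

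Heyl, the Hey-family target known from smooth muscle and satellite cells (chromosome 4, 123233556 to 123249875, plus strand), was at 36.6, 21.7, 21.2 and 24.2 normalized CPM in controls and at 28.1, 28.6, 32.3 and 24.5 in mutants. Control 1 was above every mutant, and the other controls were below every mutant. The log2 fold change was 0.13 (SE 0.16, 95% interval -0.22 to 0.49, adjusted p = 0.534, edgeR) between 25.9 ± 7.22 and 28.4 ± 3.16 (SD, n = 4 each). Without control 1 it was 0.34 and passed (adjusted p = 0.0144), and over all alternatives the adjusted p ran from 0.0144 to 0.845. Control 1 thus held the highest level of Hes1, Heyl and Dll4 among the controls and the lowest of Notch1, Notch3, Jag2 and Hey1.

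**Figure D3:**
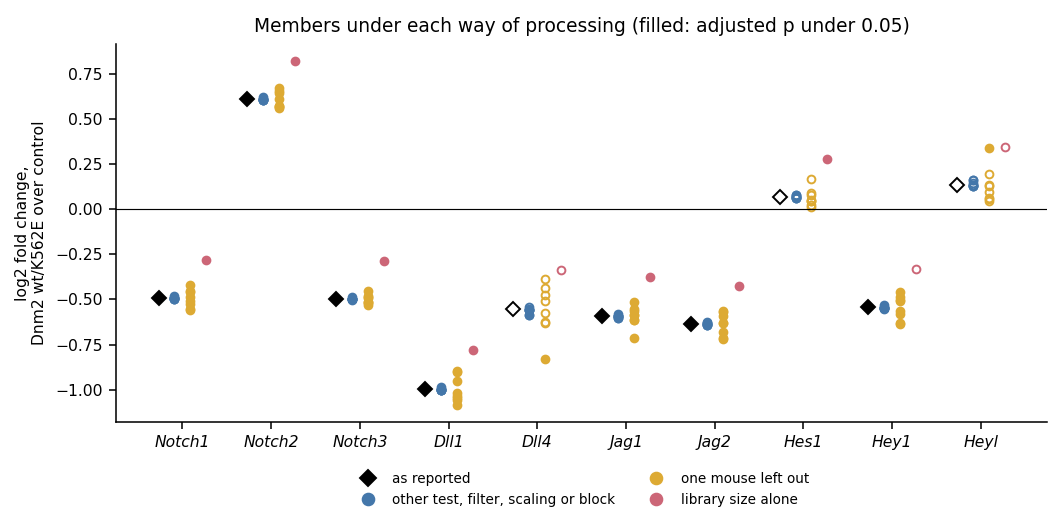
Log2 fold change (vertical axis) of each member as reported (black), with another test, filter, scaling or replicate block (blue), with 1 mouse left out (yellow) and with library size alone (red). Filled symbols passed an adjusted p of 0.05. No symbol of a member crosses 0, and filled and open symbols mix in Dll4, Hes1, Hey1 and Heyl only.

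Ordered by CPM per kilobase of exon, the level of Notch3 led in controls at 13.2 ± 0.390 (SD, n = 4), followed by Hes1 at 9.92 ± 1.49, Notch4 at 7.36 ± 1.07 and Jag2 at 7.30 ± 1.00. Dll4 (5.35), Heyl (5.07), Notch1 (4.68), Jag1 (4.19), Hey1 (3.72), Notch2 (2.72) and Dll1 (2.36) came after, on the same scale. Notch3 and Hes1, and Hes1 and Notch4, did not overlap over the mice, whereas all other neighbours in this order did. In mutants Hes1 led at 10.4 ± 0.472 CPM per kilobase and overlapped with Notch3 at 9.35 ± 0.683, Notch2 stood at 4.15 ± 0.426 beside Notch4 at 4.10 ± 0.386, and Dll1 was again last at 1.19 ± 0.217. The order rests on the exon lengths: with basic transcripts only, Hes1 came before Notch3 in controls too, at 13.8 ± 2.06 against 13.3 ± 0.394, and the mice overlapped.

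For the lists that follow, the shares over all tested genes are again 22.2% that rose and 21.7% that fell. Of the 4 genes acting on ligands, the ubiquitin ligase Mib1, which readies ligands for uptake, rose (log2 fold change 0.27, adjusted p = 0.00318, edgeR), and Neurl1a of the same activity fell (-0.27, adjusted p = 0.0283). Mib2 (0.03) and Neurl1b (-0.14) did not pass. Among the 9 genes of the receptor-cleaving ADAM proteases and gamma-secretase, 0 rose and 1 fell, the small gamma-secretase subunit Psenen (-0.21, adjusted p = 0.0252). Of the exon bases of Psenen, 9.33% overlap U2af1l4 on the other strand, which had 621 to 894 counts. Without a stated strand setting, reads of the pair cannot be told apart there. Of 6 genes for the receptors' furin cleavage and sugar modification, 1 rose, the glucosyltransferase Poglut1 (0.30, adjusted p = 0.0218), and 0 fell. The median log2 fold changes were 0.07 for the cleavage list, -0.05 for ligand ubiquitination and -0.07 for maturation, and the last 2 turned positive, at 0.16 and 0.14, with library size alone, when the median of all genes was 0.22.

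In the nuclear complex that carries out the signal, 3 of 9 genes rose and 1 fell, near the 22.2% and 21.7% of all tested genes. The DNA-binding partner Rbpj was at 35.2, 34.7, 33.2 and 34.8 normalized CPM in controls and at 44.7, 42.6, 42.2 and 38.5 in mutants, without overlap (log2 fold change 0.28, SE 0.06, adjusted p = 0.00421, edgeR). The co-activator Maml3 rose by 0.61 (adjusted p = 0.00174) and the acetyltransferase Kat2b by 0.23 (adjusted p = 0.0247), while the acetyltransferase Crebbp fell by 0.27 (adjusted p = 0.00537). Co-repressors, which hold RBPJ targets silent without the signal, counted 5 lower and 0 higher of 13, led by Tle4 (-0.44, adjusted p = 0.00197), Spen (-0.39, adjusted p = 5.66e-04), Ctbp1 (-0.28, adjusted p = 0.00360) and Ncor1 (-0.24, adjusted p = 0.00216). Medians were -0.01 for the complex and -0.07 for the co-repressors, and both turned positive with library size alone (0.20 and 0.14).

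Among 10 negative regulators, 2 rose and 3 fell, again near the shares over all tested genes. Numbl, an endocytic adaptor that limits Notch at the membrane, was between 7.01 and 13.9 normalized CPM in controls and reached up to 30.2 in mutants, with means of 9.52 ± 3.15 and 24.2 ± 4.31 (SD, n = 4 each). Its rise of 1.35 on the log2 scale (SE 0.21, adjusted p = 3.71e-04, edgeR) was without overlap, while its relative Numb fell (-0.22, adjusted p = 0.0345). The ubiquitin ligase Nedd4 rose (0.17, adjusted p = 0.0272), and the Deltex genes Dtx4 (-0.61, adjusted p = 0.0142) and Dtx3l (-0.28, adjusted p = 0.0368) fell. Of the exon bases of Dtx3l, 8.0% overlap Parp9 on the other strand, which was also counted.

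Of 7 non-canonical ligands 4 were tested, and 2 rose. These were the microfibril proteins Mfap5, at 50.7, 48.9, 46.8 and 63.0 normalized CPM in controls and 149, 180, 177 and 117 in mutants (log2 fold change 1.57, adjusted p = 1.05e-05, edgeR), and Mfap2, from 4.65 ± 0.300 to 15.1 ± 1.57 (SD, n = 4 each; 1.70, adjusted p = 1.20e-06). Both are best known as parts of elastic fibres made by fibroblasts. Of 7 further genes listed with the targets, 3 were tested and 1 rose, Hes6, a Hes-family gene of differentiating muscle cells that is known to counter Hes1, from 8.92 ± 1.04 to 12.7 ± 0.641 (0.51, adjusted p = 0.00205). Whether Notch switches on Hes6 in this muscle was not tested. Hey2 (-0.33) and Nrarp (-0.36) of this list did not pass. The median of this list was -0.33 and that of the non-canonical ligands 1.38.

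**Figure D4:**
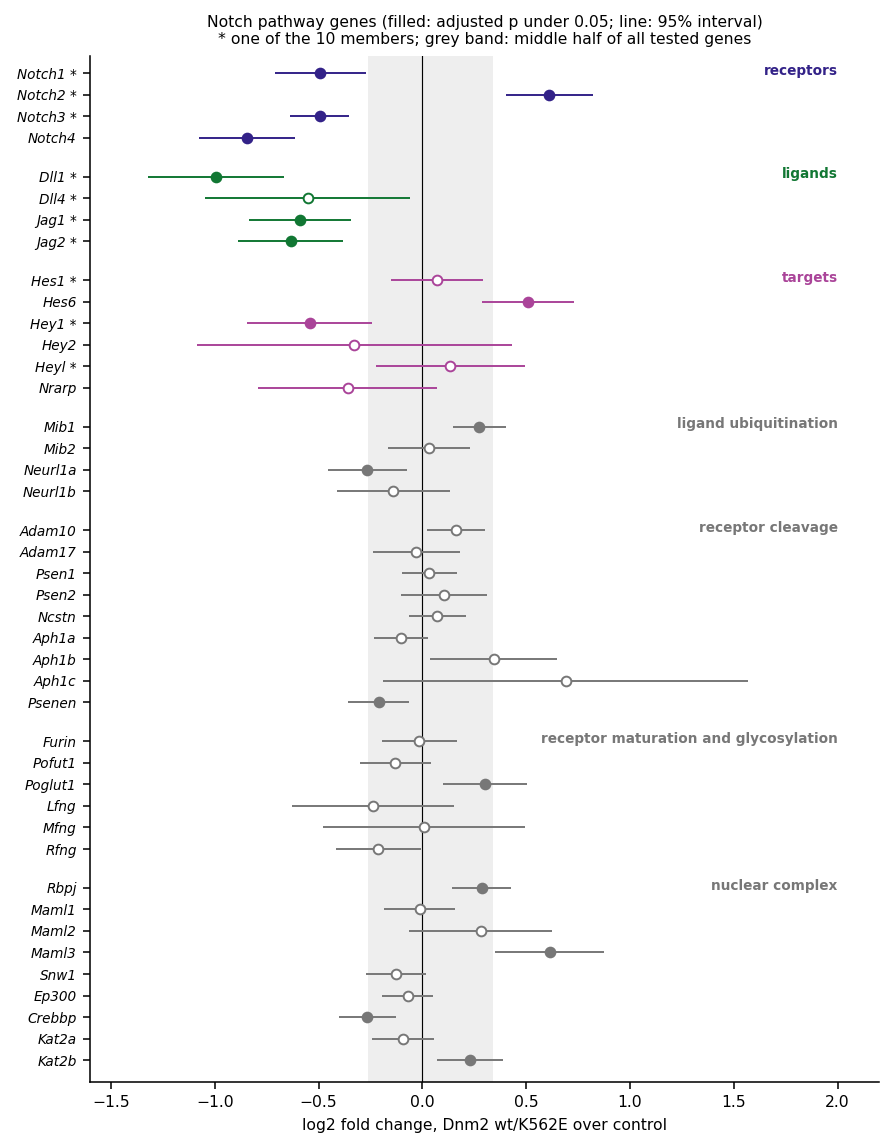
Log2 fold change (horizontal axis, Dnm2 wt/K562E over control) with its 95% interval for tested receptors, Delta-like and Jagged ligands, targets and other Notch pathway genes, filled where the adjusted p was under 0.05. Asterisks mark the 10 members and the grey band the middle of all tested genes (-0.26 to 0.33). These receptors and ligands other than Notch2 lie left of the band, and most genes of the cleavage, maturation and nuclear lists lie within it.

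The muscles also differed in markers of the cell types that use these genes. In a bulk sample, fewer cells of a type and less RNA per cell cannot be told apart. Of 10 endothelial markers 9 fell (median log2 fold change -0.43), with Robo4 (-0.73), Kdr (-0.64) and Tie1 (-0.46) first by p, and their summed level was 1219 to 1305 normalized CPM in controls and 848 to 974 in mutants. Of 6 arterial markers 4 fell (median -0.36), among them Efnb2 (-0.45), Gja5 (-1.09) and Sox17 (-0.42), and the sum went from between 215 and 233 to between 182 and 198. Of 6 mural markers 4 fell and 1 rose (median -0.39), with Abcc9 (-0.57), Myh11 (-0.63) and Rgs5 (-0.35) first, and the sum was 1658 to 1846 in controls and 1243 to 1475 in mutants. The list was mixed: Cspg4 rose (0.56), and Pdgfrb had a positive log2 fold change that did not pass (0.16). Nrp1 held the largest part of the arterial sum (means 155 in controls, 138 in mutants) and Rgs5 of the mural sum (1098 and 862). Notch1, Notch3, Notch4, Jag1, Jag2 and Hey1 fell alongside these vessel lists, whose part in the result was not tested. Dll4 (-0.55) and Heyl (0.13), also named above with vessel cells, did not pass. With library size alone the medians of these lists were -0.21 (endothelial), -0.15 (arterial) and -0.18 (mural), when the median of all genes was 0.22.

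As a description, a level can be set against such a sum in the same mouse. Notch1 was 5.35% ± 0.502 of the endothelial sum in controls and 5.10% ± 0.716 in mutants (SD, n = 4 each), with overlapping mice, and Hey1 was 0.974% ± 0.121 and 0.891% ± 0.111. Jag2 had 4.08% and 3.52%, again overlapping. Notch4 kept a gap, at 4.75% ± 0.557 against 3.55% ± 0.323, and Notch3 was 6.03% ± 0.225 of the mural sum in controls against 5.44% ± 0.173 in mutants, without overlap. Heyl was 1.47% ± 0.427 and 2.05% ± 0.232 of the mural sum, where control 1 alone reached the mutants.

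Satellite cell markers were lower as well. Of 7, 4 fell and 0 rose (median -1.85), with Chrdl2 (-2.69), Myf5 (-1.85) and Calcr (-3.47) first by p, and the sum was 87.8 to 123 normalized CPM in controls and 66.5 to 98.0 in mutants. Sdc4 held the largest part of this sum, with means of 59.5 in controls and 48.7 in mutants, followed by Cdh15 (21.4 and 22.6). Neither passed (log2 fold changes -0.29 and 0.08). Markers of new or regenerating fibres counted 3 higher and 0 lower of 7 (median 1.85), namely Myl4 (4.84), Myh3 (3.84) and Myog (3.10), and their sum went from between 65.3 and 79.4 to between 545 and 814. The fall of Dll1 and Hey1 and the rise of Hes6 moved with these lists, whose part was not tested. Hey1 fell alongside the vessel lists too. Of the other members named above with satellite cells, Notch1 (-0.49) and Notch3 (-0.50) also fell. Notch2 rose (0.61), opposite to the satellite cell list, and Heyl did not pass (0.13).

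Markers of macrophages, fibro-adipogenic cells and tendon were mostly higher. All 7 macrophage markers rose (median 1.20; Cd68 1.77, Lgals3 2.10 and Mrc1 1.15 first), with sums of 72.8 to 135 normalized CPM in controls and 179 to 296 in mutants. Fibro-adipogenic markers counted 5 higher and 1 lower of 6 (median 0.93; Lum 1.65, Pdgfra 1.11 and Dcn 0.99 first), with sums of 914 to 1297 and 1720 to 2256. Tendon markers counted 5 higher and 0 lower of 6 (median 1.09; Scx 1.07, Tnmd 1.42 and Mkx 1.18 first), with sums of 327 to 737 and 933 to 1292. Notch2, Mfap2 and Mfap5 rose with these lists, and the part of the lists in that rise was not tested.

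Of 8 markers of soleus fibres 7 fell (median -0.57; Myl3 -2.12, Ckm -1.02 and Myh2 -0.62 first), and their sum was 54153 to 61900 normalized CPM in controls and 33313 to 38778 in mutants. No marker of these cell type lists was at 0 in every mouse.

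**Figure D5:**
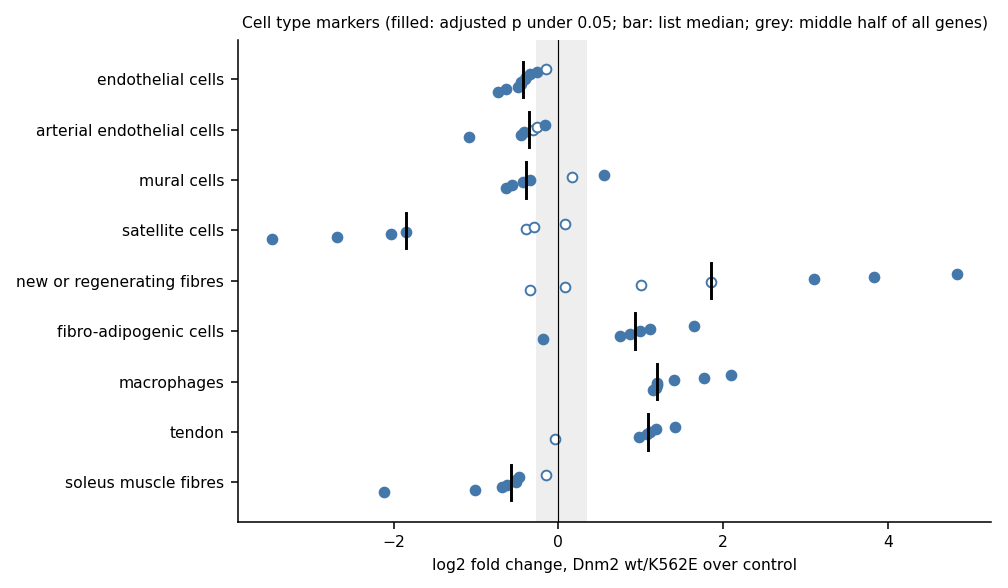
Log2 fold change (horizontal axis) of each cell type marker, 1 circle per gene and 1 line per list, filled where the adjusted p was under 0.05, with a black bar at the list median and a grey band over the middle of all tested genes. Endothelial (-0.43), arterial (-0.36) and mural (-0.39) medians lie left of the band, as does the satellite cell median (-1.85), and those of macrophages (1.20), tendon (1.09) and fibro-adipogenic cells (0.93) lie right of it.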

How the data were processed

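RNA-seq of soleus covered 4 control mice and 4 Dnm2 wt/K562E mice, with the genotype taken from the labels. The authors deposited raw counts per gene and mouse, without normalization. Reads had been trimmed with Trimmomatic 0.33, aligned with STAR 2.5.1b to GRCm38.p5 and counted with featureCounts, and the authors then used edgeR 3.14.0. Reads with several alignments were counted only at the primary one, and reads that lay on more than 1 gene were added to each, so overlapping genes share reads. The strand setting is not given in the sources used here. Library type differs between the sources, with poly A enrichment in the methods and a stranded total RNA kit in the labels.

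Of 22880 gene IDs, 22647 were matched to GENCODE M21, which is on the same build and gave symbols, positions and exon lengths. The filter filterByExpr (minimum count 10, minimum total 15) kept 14001 genes. TMM scaling, the quasi-likelihood F-test and Benjamini-Hochberg adjustment were run with edgeR 4.0.16 in R 4.3.3. The threshold was an adjusted p of 0.05, and standard errors were derived from the F statistics. Depth was 33407430 to 48832814 counts per mouse. The p-values set the difference between genotypes against the spread between mice, which the test estimates with information shared across genes. Any pair of mice of a genotype differed by more than sampling noise (chi-square at least 13.0 times its degrees of freedom), so all 8 counted as replicates. Columns of per-sample values left unused numbered 0.

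Members and gene lists were chosen with earlier results of these data known. Named were every member, Dnm2, up to 4 genes per direction with the largest log2 fold change of each pathway list, every gene of lists of 4 or fewer and the 3 genes with the smallest p of each cell type list. Myh7, Egfl7, Nrarp and Hey2 were named after their values were seen, as were the genes set against each cell type sum. The same holds for Nrp1, Sdc4, Cdh15, Mfng, Maml2, Cir1, Dtx3, Gja4, Pdgfrb, Kcnj8 and Cspg4. Mice that share a number are not the same animal, and how they departed from their group means correlated by -0.21 to 0.01 across genes with the numbers of the titles and by -0.17 to 0.18 with those of the descriptions, which order the mutants differently, so the numbers were not taken as pairs. Alternatives were edgeR's exact test, DESeq2 1.42.0, scaling by median-ratio factors or by library size alone, a table without mitochondrially encoded genes, no low-count filter or one of 10 counts in each mouse, a replicate block from either numbering, a fold change threshold, no scaling by exon length and leaving out each mouse. Exon lengths of basic transcripts were added after seeing the data. The fit was tested on simulated data. Stretches of 31 bases of each gene's transcripts were searched in all other genes, and Dll1 (17.9%), Notch1 (9.40%) and Notch3 (6.59%) shared most among the members. Promoters came from RefSeq windows. The result of 1 list of cell type markers is not reported here, for a reason unrelated to its values.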

Additional observations from a re-analysis of the deposited data

Results flagged for a closer look

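In controls, Dnm2 had 59.2 normalized CPM in control 3, apart from 68.5 to 68.8 in the other controls. Its gap to the nearest control was 0.965 of the whole range of the group, above the critical value for 4 samples of Dixon's test at 95%. The check was run on 22 groups of 4 mice (11 genes in each genotype), where chance gives about 1 in 20. The 10 members gave no such value.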

How the results depend on the processing

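No member changed direction under any of the alternatives. Notch1, Notch2, Notch3, Dll1, Jag1 and Jag2 kept their side of the p threshold under each of them (Notch1 and Notch3 failed the added fold change threshold), and Dll4, Hes1, Hey1 and Heyl did not. Members that rose numbered 2 rather than 1 with library size alone (Hes1 was added at 0.28), and 1 to 2 when each mouse was left out, the 2 being without control 1, where Heyl was added at 0.34. Members that fell numbered 5 with library size alone, 3 with a fold change threshold, 7 with the exact test and with DESeq2, which added Dll4, and 6 to 7 with a mouse left out. Over all genes, library size alone gave 5608 higher and 1504 lower, the fold change threshold 1806 and 1099, and leaving out each mouse 2651 to 3225 higher and 2629 to 3172 lower. With the replicate block, 1 member rose and 6 fell by the numbers of the titles, and 1 rose and 7 fell by those of the descriptions, where Dll4 passed at -0.59 (adjusted p = 0.00359), and all genes gave 2608 higher and 2523 lower or 2909 and 2836. Dnm2 passed with library size alone at 0.36 (adjusted p = 0.00271). Without scaling by exon length the Notch2 share of receptors averaged 11.3% in controls and 22.3% in mutants. Medians of short lists also moved. That of the satellite cell list was -1.11 with at least 10 counts in every mouse. For the regenerating fibres it ran from 1.35 without mutant 4 to 2.26 without control 4. For the non-canonical ligands it was 1.02 without mutant 2. For the further genes listed with the targets it ran from -0.63 without mutant 2 to -0.11 without control 1. Depth did not limit the members, whose lowest count in any mouse was 166, while Hes3 and Dll3 had 0 counts.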

Other observations

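Some genes outside the members were picked after their values were seen, for being highest in control 1 and mutant 2, as Dll4 was. How many of all tested genes share this was not counted, and Mfng of the sugar modification list does too (11.3 in control 1, 11.4 in mutant 2). So do Maml2 of the nuclear complex (16.6 and 18.6), Cir1 of the co-repressors (21.5 and 21.6) and Dtx3 of the negative regulators (40.5 and 40.1). Gja4 of the arterial list and Pdgfrb and Kcnj8 of the mural list do as well, so the pattern is not particular to the genes shown. Egfl7, a secreted endothelial protein, had 106, 75.3, 76.5 and 80.3 normalized CPM in controls and 50.1, 85.0, 78.8 and 54.3 in mutants, so control 1 and mutant 2 were highest in their groups, as for Dll4. Nrarp, a feedback inhibitor that Notch switches on, had 16.4, 12.1, 14.9 and 13.9 in controls and 9.12, 16.9, 9.33 and 9.30 in mutants. Of its exon bases, 79.4% overlap Gm38287 on the other strand, and without a stated strand setting reads of the pair cannot be told apart there. Hey2, an arterial Notch target, had 2.26, 1.40, 1.30 and 1.35 in controls and 0.679, 2.02, 1.36 and 0.919 in mutants. Egfl7, Nrarp and Hey2 did not pass the test between genotypes (adjusted p = 0.142, 0.160 and 0.467, edgeR quasi-likelihood test), and no test was made of their likeness to Dll4. In the sample descriptions, control 1 and mutant 2 both carry the number 1. How these mice departed from their group means correlated by 0.18 across genes, and whether they share any handling was not tested.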
